A study of Mus musculus with 3 samples.

Results

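The 7 complex I subunit genes of the mouse mitochondrial chromosome, mt-Nd1, mt-Nd2, mt-Nd3, mt-Nd4l, mt-Nd4, mt-Nd5 and mt-Nd6, were examined in ovulated oocytes. They were chosen by name and by their mm9 positions, and are 7 of the 37 genes annotated on that chromosome and 7 of its 13 messenger RNA genes. All 7 were measured in every library, and no filter on low values was applied to them. The study holds 1 group of 3 libraries, 1 per litter, of total RNA from oocytes of superovulated females collected by embryonic day 0.5 and lysed directly. The RNA was amplified by single primer isothermal amplification, a linear copying of cDNA, before the sequencing libraries were made. All females were of mixed strain and homozygous for a floxed allele of LSD1 (LSD1 FL/FL) without the ZP3::Cre transgene, whose promoter is active in growing oocytes. The allele was thus not deleted by that Cre, and every library shares this genotype. The labels do not give the number of females or oocytes per library, and p-values over litters were not computed, since 3 litters allow no two-sided exact sign-flip p below 0.25.

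Complex I, the NADH:ubiquinone oxidoreductase, is the first enzyme of the respiratory chain and passes electrons from NADH to ubiquinone while it moves protons across the inner mitochondrial membrane. The 7 mitochondrial genes encode the core of its membrane arm, and all other subunits come from the nucleus. The mitochondrial chromosome is read as long precursors from both strands. Transfer RNA genes lie between most messenger RNA genes, and their excision frees the messenger RNAs. mt-Nd6 is the 1 complex I gene encoded on the strand opposite to the other 6. Oocytes hold very many mitochondria, all of them maternal, which are passed on to the embryo.

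The gene ends show how closely the complex I genes are packed, which matters for assigning reads. The sequences below are the transcripts of GENCODE release M21 (GRCm38), taken by gene name, written 5′ to 3′ on the strand of the gene. The mitochondrial chromosome has 16299 bases in the files, and the 7 gene positions are the same in that annotation and in the mm9 positions used. Its sequence was taken to be the same in both builds. On it mt-Nd1 spans 2751 to 3707, mt-Nd2 3914 to 4951, mt-Nd3 9459 to 9806, mt-Nd4l 9877 to 10173, mt-Nd4 10167 to 11544, mt-Nd5 11742 to 13565 and, on the minus strand, mt-Nd6 13552 to 14070. Each gene is a single exon. The first 30 bases of each gene are shown with the annotated start codon in capitals.
mt-Nd1 (chrM:2751-2780, plus strand): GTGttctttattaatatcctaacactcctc
mt-Nd2 (chrM:3914-3943, plus strand): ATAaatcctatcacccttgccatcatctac
mt-Nd3 (chrM:9459-9488, plus strand): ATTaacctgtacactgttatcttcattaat
mt-Nd4l (chrM:9877-9906, plus strand): ATGccatctaccttcttcaacctcaccata
mt-Nd5 (chrM:11742-11771, plus strand): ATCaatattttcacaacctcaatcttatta
mt-Nd6 (chrM:14041-14070, minus strand): ATGaataattatatttttgttttaagttca
The mitochondrial genetic code uses several start codons, and 5 different ones occur among the 7 genes. The remaining gene, mt-Nd4, begins inside the end of mt-Nd4l. The 7 bases that belong to both genes (10167 to 10173) are in capitals in the last 30 bases of mt-Nd4l and the first 30 of mt-Nd4.
mt-Nd4l end (chrM:10144-10173, plus strand): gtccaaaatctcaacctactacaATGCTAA
mt-Nd4 start (chrM:10167-10196, plus strand): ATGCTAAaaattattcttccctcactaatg
The last 14 bases of mt-Nd5 (13552 to 13565) are the complement of the last 14 of mt-Nd6, in capitals here.
mt-Nd5 end (chrM:13536-13565, plus strand): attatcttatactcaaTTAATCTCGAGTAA
mt-Nd6 end (chrM:13552-13581, minus strand): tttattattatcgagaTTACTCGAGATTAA
Of the 7 genes, 6 are whole numbers of codons long, and mt-Nd4 ends in a single T, as shown in capitals in its last 30 bases. In mammalian mitochondria such a stop codon is completed by the poly(A) tail.
mt-Nd4 end (chrM:11515-11544, plus strand): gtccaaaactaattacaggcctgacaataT
mt-Nd6 stands apart in base composition, with 28.1% G and 5.97% C, whereas the other 6 genes had 7.996% to 11.6% G and 22.1% to 29.97% C.

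The libraries of litters 3, 1 and 2 held 32028802, 35183199 and 31787887 alignments, of which 3.12%, 1.65% and 1.41% lay on the mitochondrial chromosome. Each library was sequenced in a lane of its own, per the file headers, so litter and lane cannot be told apart. An alignment reported at several places counts at each of them, and the tracks hold no strand. The oocyte label was not checked against marker genes, and the nuclear complex I genes were not analysed here, because no nuclear annotation of the files' build was used. In libraries from whole cells, fewer cells and less RNA per cell, or fewer mitochondria and less RNA in each, cannot be told apart.

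All 7 complex I genes held alignments in every library, with the fewest in mt-Nd3, at 1096 in litter 2. In mt-Nd4l 100% of alignments had a nuclear counterpart, and in mt-Nd3 at most 99.7%, 99.2% and 99.4% in litters 3, 1 and 2. Detection of mitochondrial RNA is thus not established for mt-Nd4l and mt-Nd3. Together the 7 genes held 29.1% ± 1.78 (SD, n = 3) of mitochondrial alignments. As a share of messenger RNA alignments they held 48.4%, 50.1% and 49.2% in litters 3, 1 and 2 (49.2% ± 0.838, SD, n = 3). The 6 other messenger RNA genes, which encode subunits of complexes III, IV and V, held the remaining 50.8% ± 0.838. The complex I genes make up 56.1% of the messenger RNA bases counted, so with every alignment counted their share lay below their share of sequence in every litter. Their mean share was 55.9% with each start position counted once, which caps every base at 1 alignment. It was 68.1% without positions whose counts repeat at a nuclear place. Such positions held 25.03% of alignments in the 7 genes and 42.4% in the 6 others. They held 99.5% in mt-Co2, 98.6% in mt-Atp6, 94.2% in mt-Atp8 and 86.6% in mt-Co3, against 42.7% in mt-Co1 and 0% in mt-Cytb. Leaving them out thus takes most alignments of several other genes out of the total. Per length, the 7 genes pooled stood at 945 ± 415 RPKM (SD, n = 3), where RPKM is alignments per kilobase counted and per 1000000 alignments in the library. The 6 others pooled stood at 1252 ± 587 RPKM, with complex III at 1790.3 ± 831, complex IV at 1179 ± 623 and complex V at 757 ± 132 RPKM. Although their SDs over litters overlap, the order of the pooled levels was the same in all 3 litters, with complex III highest, then IV, I and V. Complex I and V lay close in litters 1 and 2, with 809 and 615 RPKM for complex I against 803 and 608 for complex V, and apart in litter 3, with 1411 against 859. These differences had no test.

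The levels of the 7 genes spanned 14.0-fold between the highest and the lowest mean, and 8.22-fold without litter 3. They spanned 1.72-fold with each start position counted once, which caps every base at 1 alignment. The 3 large subunits that resemble ion antiporters, ND2, ND4 and ND5, are thought to carry proton channels. mt-Nd4 stood at 1584, 1069.8 and 782 RPKM in litters 3, 1 and 2 (1145 ± 407, SD, n = 3), from 69571, 51601 and 34065 alignments. mt-Nd5 stood at 1723, 879.5 and 688 RPKM in litters 3, 1 and 2 (1097 ± 551). mt-Nd2 stood at 1314, 680 and 525 RPKM in the same order (839.8 ± 418). In all 3 genes litter 3 was highest and litter 2 lowest, although mt-Nd4 was highest in litter 1 when scaled to mitochondrial alignments. mt-Nd1, whose product lies at the joint with the peripheral arm and forms part of the ubiquinone site, stood at 1088, 798 and 581 RPKM in the 3 litters (822 ± 254). It followed the same order of litters per library total, and was highest in litter 1 when scaled to mitochondrial alignments.

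The 3 small subunits, ND3, ND4L and ND6, sit between ND1 and the antiporter-like subunits, and their genes held both extremes of the range. mt-Nd4l stood at 3144, 767 and 608 RPKM in litters 3, 1 and 2 (1506 ± 1420, SD, n = 3). Its mean was the highest of the 7, but rested on litter 3 and on recurring positions, meaning starts whose counts repeat at a nuclear place in every library. mt-Nd4l ranked 1 of 7 in litter 3, 4 in litter 1 and 3 in litter 2, and without litter 3 its mean was 688 RPKM. Without the recurring positions, which leaves 30 of its bases, its mean was 52.9 RPKM and litter 3 stood 2.43-fold above the mean of the other litters. mt-Nd3 stood at 98.4, 126 and 99.1 RPKM in litters 3, 1 and 2 (108 ± 15.9) and ranked lowest in every litter. With recurring positions left out, mt-Nd4l instead ranked lowest in litter 2, at 27.3 RPKM against 32.2 for mt-Nd3, from 19 and 142 alignments. mt-Nd6 stood at 541, 631 and 506 RPKM (559.5 ± 64.8), with rank 6 in every litter. In neither of these 2 genes was litter 3 the highest when every alignment was counted. For mt-Nd3 this turned without recurring positions, with 51.8 RPKM in litter 3 against 38.4 and 32.2 in litters 1 and 2. The bases left are shallow, with 241, 187 and 142 alignments in litters 3, 1 and 2, and are not free of nuclear copies. Only 3, 12 and 7 alignments of the whole gene had no nuclear counterpart. With each start position counted once, litter 3 was highest in both mt-Nd3 and mt-Nd6. Counting error was small against these spreads: the 95% exact Poisson interval of mt-Nd3, the gene with the fewest alignments, was 92.7 to 104 RPKM in litter 3, from 1097 alignments. Such intervals cover counting error only, since copies made during amplification are not independent molecules.

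**Figure D1:**
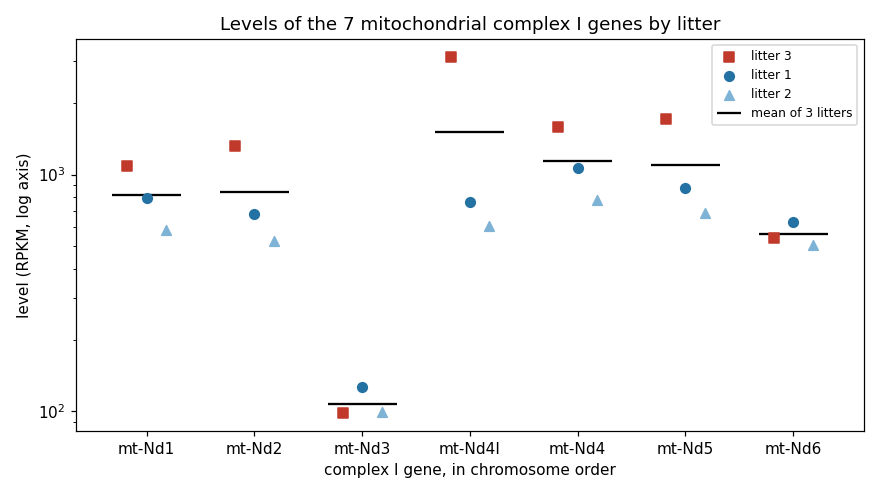
Level of each complex I gene in RPKM on a log axis, with 1 point per litter and a bar at the mean of the 3 litters. mt-Nd3 lies below the other 6 genes in every litter, and mt-Nd4l has the widest spread, with 3144 RPKM in litter 3 against 767 and 608 in litters 1 and 2.

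The order of the means was mt-Nd4l, mt-Nd4, mt-Nd5, mt-Nd2, mt-Nd1, mt-Nd6 and mt-Nd3. Of the 6 pairs of neighbours in that order, mt-Nd6 and mt-Nd3 alone had ranges over litters that did not overlap, with 506 RPKM as the lowest value of mt-Nd6 and 126 as the highest of mt-Nd3. The pairs mt-Nd5 over mt-Nd2 and mt-Nd1 over mt-Nd6 kept their order in all 3 litters although their ranges overlapped. The remaining 3 neighbouring pairs changed order between litters. Among all 21 pairs of the 7 genes, 8 had ranges that did not overlap: mt-Nd3 lay below each of the other 6, and mt-Nd6 lay below mt-Nd4 and mt-Nd5.

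Litter 3 differed from the other litters by an amount that depended on the gene. It was compared with the mean of litters 1 and 2 because earlier results of these data had shown it apart, and with 1 library on its side the ratio has no replicate check. The ratio was 4.57 for mt-Nd4l, 2.20 for mt-Nd5, 2.18 for mt-Nd2, 1.71 for mt-Nd4, 1.58 for mt-Nd1, 0.952 for mt-Nd6 and 0.874 for mt-Nd3. Litter 3 held the highest level in 5 of the 7 genes (3 of 7 when scaled to mitochondrial alignments, 6 of 7 without recurring positions and 7 of 7 with each start position counted once). The gene added without recurring positions was mt-Nd3, from shallow positions that are not free of nuclear copies. Counting each start once caps every base at 1 alignment. mt-Nd1 used 851 starts in litter 3 and 852 in litter 1, so its order in that setting rests on the scaling. The other members used the most starts in litter 3. Of 10896 nuclear windows of 1 kb with a mean of at least 10 alignments per 1000000 (CPM), 46.4% were highest in litter 3. A ratio over 2 was seen in 3 of the 7 genes, against 22.4% of the windows. The rise was not particular to complex I. Of the 6 other mitochondrial messenger RNA genes, 5 were highest in litter 3 and 3 had a ratio over 2. The ribosomal RNA genes mt-Rnr1 and mt-Rnr2 were also highest in litter 3, with ratios of 3.42 and 1.53. The median ratio of the 7 genes was 1.71, that of the 6 other messenger RNA genes 1.76 and that of the windows 1.05. The whole mitochondrial chromosome had a ratio of 2.04.

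Scaled to mitochondrial alignments instead of all alignments, the direction was lost in part of the genes. The ratio then was 2.25 for mt-Nd4l, 1.08 for mt-Nd5 and 1.07 for mt-Nd2. It turned to 0.844 for mt-Nd4 and 0.778 for mt-Nd1, while mt-Nd6 had 0.468 and mt-Nd3 had 0.430, so that 3 of the 7 genes were highest in litter 3. mt-Nd3 and mt-Nd6 thus made up a smaller share of mitochondrial alignments in litter 3, with 0.110% against 0.267% and 0.245% for mt-Nd3 in litters 1 and 2, and 0.877% against 1.94% and 1.81% for mt-Nd6. Among the other mitochondrial messenger and ribosomal RNA genes, mt-Co2 and mt-Cytb followed the median pattern of the 7 most closely over the 3 litters. Their Euclidean distances, in log2 RPKM centred on each gene's mean, were 0.20 and 0.22. Among the members these distances ran from 0.00 for mt-Nd4, which sets the median, to 1.15 for mt-Nd4l.

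Depth along each gene was uneven, in a pattern that litters 1 and 2 shared more closely with each other than with litter 3. In litters 1 and 2 the depth profiles were nearly the same: Pearson's r of log2(depth + 1) across bases was 0.97 for mt-Nd2 and 0.99 for the other 6 genes. Between litters 3 and 1 it was 0.96 for mt-Nd4l, 0.94 for mt-Nd6, 0.87 for mt-Nd1, 0.86 for mt-Nd5, 0.84 for mt-Nd4, 0.83 for mt-Nd3 and 0.70 for mt-Nd2. These correlations are descriptions across 297 to 1824 bases of a gene, and neighbouring bases share reads. The highest depth of mt-Nd1 fell on the same base in all 3 litters, base 649 of the gene, at 10174, 6386 and 5420 alignments in litters 3, 1 and 2. In mt-Nd6 the peaks lay at base 419, 420 and 419 of the gene. In mt-Nd4 they lay at base 239 in litter 1 and 237 in litter 2, but on the first base of the gene in litter 3. The peak of mt-Nd2 lay at base 215 in litters 1 and 2 and at 821 in litter 3. In mt-Nd4l it lay at 280 and 228, and in mt-Nd5 at 1379 and 1372. In mt-Nd3 the peaks lay at base 124, 174 and 171 in litters 3, 1 and 2.

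The genes did not share a common slope from the 5′ to the 3′ end. With each gene cut into 3 equal parts, the last part of mt-Nd4l had 1.97, 1.84 and 2.03 times the gene's mean depth in litters 3, 1 and 2, and the first part had 0.34, 0.38 and 0.28 times. mt-Nd5 also held its lowest depth in the first part, at 0.26, 0.48 and 0.49 times the mean. In mt-Nd6, read along its own strand, the first part had 0.40, 0.47 and 0.51 times the mean and the last part 1.41, 1.49 and 1.30 times. mt-Nd2 and mt-Nd4 were instead low in the middle, with 0.49, 0.73 and 0.69 times the mean for mt-Nd2 and 0.84, 0.54 and 0.47 times for mt-Nd4. mt-Nd3 ran the other way, and its last part held 0.20, 0.06 and 0.05 times the mean depth.

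**Figure D2:**
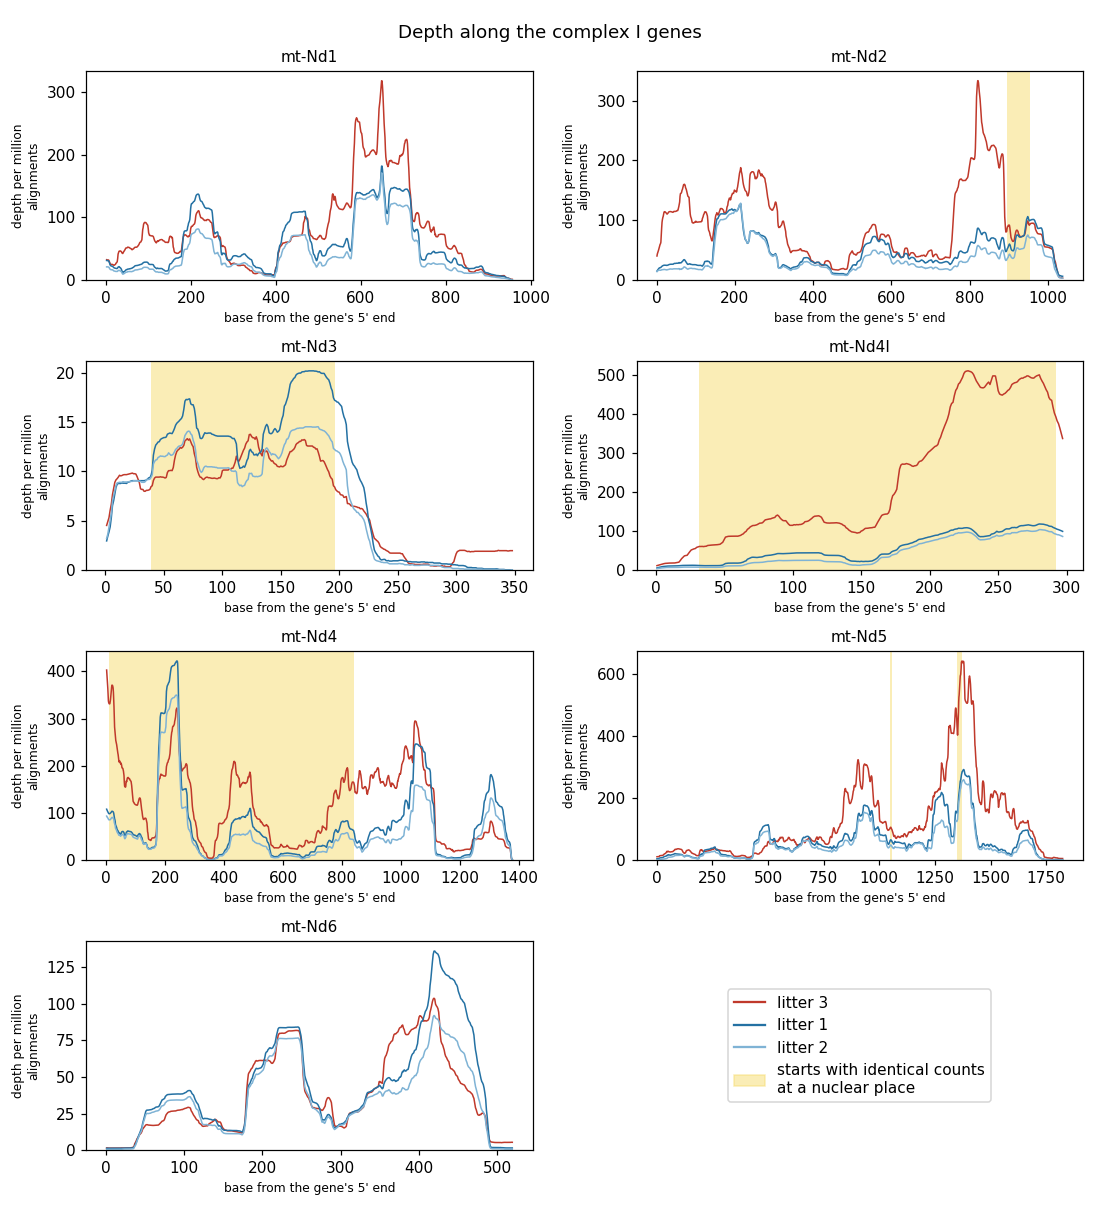
Depth per 1000000 alignments along each complex I gene, from its 5′ end, with 1 line per litter. Shading marks starts whose counts recur exactly at a nuclear place. Litters 1 and 2 follow each other closely, the 3′ part of mt-Nd3 is nearly empty, and on this scale litter 3 lies above the others along all of mt-Nd4l.

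mt-Nd3 lost its depth within the gene. Over bases 259 to 298 of the gene (9717 to 9756), depth was under 10% of the gene's median in every litter, averaging 16.4, 25.8 and 13.25 alignments in litters 3, 1 and 2, with gene medians of 288, 360.5 and 285. In litters 1 and 2 the depth stayed low to the 3′ end, and 2 and 7 bases of the gene had no alignment. In litter 3, 0 bases of the gene were empty, and the last 48 bases had a mean depth of 61.8, against 6.40 in litter 1 and 2.17 in litter 2. The stretch is shown in capitals with 20 bases on either side.
mt-Nd3 low stretch (chrM:9697-9776, plus strand): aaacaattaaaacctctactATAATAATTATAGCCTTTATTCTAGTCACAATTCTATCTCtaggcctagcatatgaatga
Other stretches of at least 10 bases under 10% of the median in every litter lay at the 3′ end of mt-Nd1 (15 bases), near the 3′ end of mt-Nd5 (19 and 25 bases), at the 5′ end of mt-Nd6 (36 bases) and inside mt-Nd4 (25 bases).

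Per library total, litter 3 lay above the mean of litters 1 and 2 along most of the long genes, by an amount that varied from stretch to stretch. In bins of 50 bases with a mean depth of at least 50 in every litter, the ratio was above 1 in 21 of 21 bins of mt-Nd2, 33 of 35 of mt-Nd5, 23 of 28 of mt-Nd4 and 14 of 19 of mt-Nd1. The median ratio over these bins was 1.65 for mt-Nd2, 1.94 for mt-Nd5, 2.43 for mt-Nd4 and 1.56 for mt-Nd1. The ratio ran from 0.472 to 7.68 in mt-Nd4, from 0.382 to 7.67 in mt-Nd5, from 1.08 to 5.41 in mt-Nd2 and from 0.674 to 3.96 in mt-Nd1. mt-Nd4l was even, at 4.08 to 4.85 in its 6 bins. mt-Nd6 ran from 0.591 to 1.57 in 10 bins, and mt-Nd3 from 0.690 to 1.01 in the 5 bins deep enough. The first 50 bases of mt-Nd4, which follow on from mt-Nd4l, had a depth of 9520 in litter 3 against 2976 and 2381 in litters 1 and 2, a ratio of 3.73. Bases 201 to 250 of the same gene had 8186 against 13402 and 10112, a ratio of 0.731. In mt-Nd5 the ratio was highest over bases 1551 to 1600, with a depth of 5498 in litter 3 against 899 and 611 in litters 1 and 2.

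**Figure D3:**
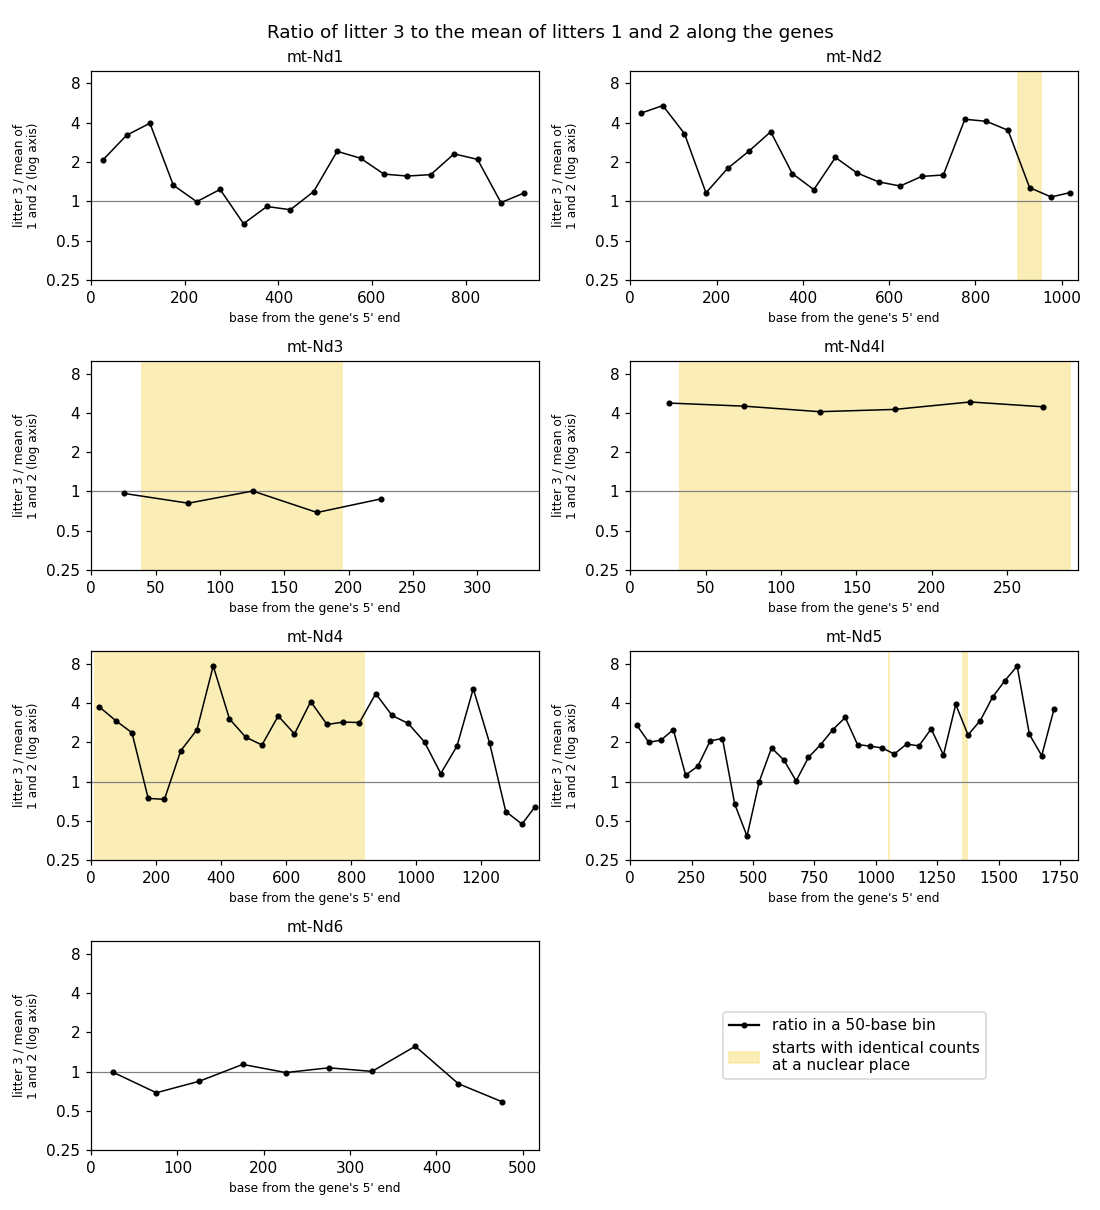
Depth per 1000000 alignments in litter 3 over that averaged across litters 1 and 2, in bins of 50 bases along each gene, on a log axis, for bins with a mean depth of at least 50 in every litter. The grey line marks a ratio of 1, and shading marks starts whose counts recur at a nuclear place. mt-Nd4l stays between 4.08 and 4.85, while mt-Nd4 moves between 0.472 and 7.68.

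Alignments that cross the gene ends were counted as a description of the reads. With no strand in the tracks, they do not show which messages are joined to their neighbours. An alignment was taken to span an end when it had at least 10 bases on each side, and the count was set against the median of the same count inside the gene. Across the junction of mt-Nd4l and mt-Nd4, which are known to share 1 bicistronic messenger RNA, spanning alignments numbered 10095, 3340 and 2605 in litters 3, 1 and 2 at the 3′ end of mt-Nd4l. These were 329.5%, 256% and 386% of the median inside mt-Nd4l (324% ± 64.9, SD, n = 3). A share above 100% means more spanning alignments at the end than at the median place inside, so it is no fraction of joined messages. On both sides of this junction the alignments also had equal counts on chromosome 1, so nuclear and mitochondrial sequence cannot be told apart there. The 3′ end of mt-Nd4, next to the histidine transfer RNA gene mt-Th, was crossed by 29, 13 and 6 alignments (1.05% ± 0.207). The 3′ end of mt-Nd1, next to mt-Ti, was crossed by 29, 5 and 3 (0.857% ± 0.701). The 5′ end of mt-Nd4l, next to mt-Tr, stood at 8.04% ± 1.03.

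Ends next to other transfer RNA genes covered a wide range. At the 5′ end of mt-Nd1, next to the leucine transfer RNA gene mt-Tl1 that follows mt-Rnr2, 715, 795 and 517 alignments spanned the end in litters 3, 1 and 2, or 63.7% ± 19.9 of the median inside the gene. At the 5′ end of mt-Nd2 the share was 48.2% ± 11.2, and at that of mt-Nd3 29.0% ± 13.1. The 3′ end of mt-Nd2 stood at 13.1% ± 7.35 and the 5′ end of mt-Nd5 at 12.0% ± 6.52. mt-Nd5 has no transfer RNA gene at its 3′ end, where it meets mt-Nd6 on the other strand. There 163, 51 and 24 alignments crossed (5.14% ± 3.09), and 8.78% ± 8.64 of the mt-Nd6 median crossed the 3′ end of mt-Nd6, with litter 3 highest at 18.7%. The 5′ end of mt-Nd6 stood at 3.78% ± 1.41. The 3′ end of mt-Nd3 was crossed by 61 alignments in litter 3 and by 0 in litters 1 and 2. The rarity of reads over gene ends had earlier been used on these data to judge the gene positions, so it is no independent check of them.

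**Figure D4:**
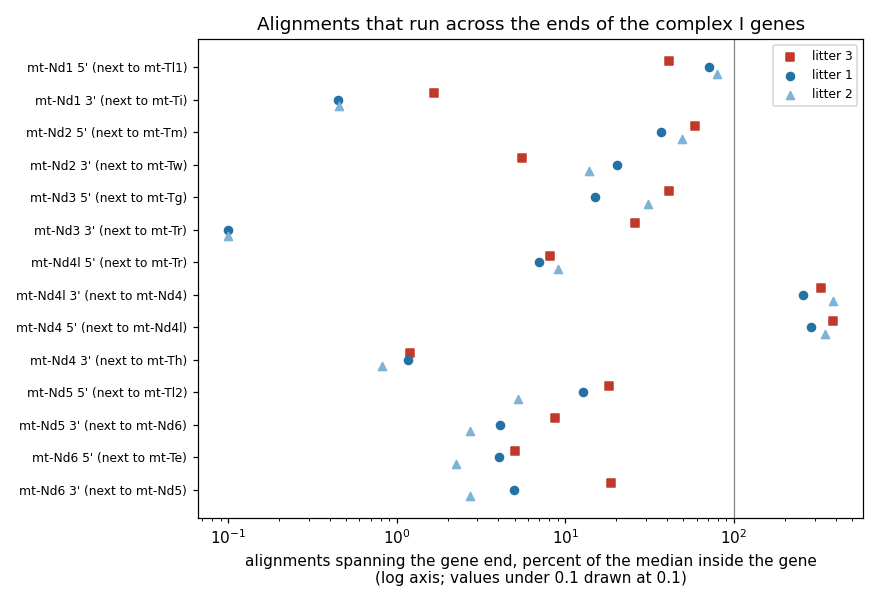
Alignments with at least 10 bases on each side of a gene end, as a percentage of the median of the same count inside the gene, on a log axis, with 1 point per litter for each end. The junction of mt-Nd4l and mt-Nd4 lies above 100% in all 3 litters, and the 3′ ends of mt-Nd1 and mt-Nd4 lie under 2%.

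Part of the complex I alignments were reported at nuclear copies of mitochondrial sequence as well. Such copies were recognised from runs of 3 adjacent used starts, holding 50 or more alignments together, whose counts in each library and whose spacing recurred at a nuclear place. Of alignments in the 7 genes, 26.7%, 23.9% and 24.5% lay in such runs in litters 3, 1 and 2 (25.03% ± 1.48, SD, n = 3), against 42.4% ± 5.73 in the 6 other messenger RNA genes. They lay in 5 of the 7 genes, and mt-Nd1 and mt-Nd6 held 0. A nuclear copy whose counts differ from the mitochondrial ones throughout would be missed, so 0 runs does not show that a gene has no copy. For a gene in a copied stretch, mitochondrial and nuclear RNA cannot be told apart from these tracks.

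The 5 genes were then compared position by position with their nuclear counterparts. In mt-Nd4l, each of the 288 start positions in use had exactly the same count on chromosome 1 in all 3 libraries, so 100% of its alignments have a nuclear counterpart (mm9, chromosome 1, 24619215 to 24619544 for the span of its runs, in reverse orientation). In mt-Nd4, 61.4%, 58.8% and 62.5% of alignments in litters 3, 1 and 2 were matched exactly, and the runs ended at start position 10969, within the gene. In mt-Nd3, 94.5%, 94.3% and 93.6% were matched. Its runs lay at 24619730 to 24619956 of chromosome 1, close to those of mt-Nd4l and mt-Nd4 (24618376 to 24619278) and in the same reversed orientation.

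mt-Nd2 and mt-Nd5 had short or partial counterparts. In mt-Nd2, 5.12%, 9.28% and 8.56% of alignments in litters 3, 1 and 2 had equal counts on chromosome 2. Its runs there lay at 22445594 to 22445721, where starts 4774 to 4830 held 2016, 2052 and 1324 alignments. mt-Nd5 had equal counts for 2.13%, 2.86% and 3.06%, on chromosomes 4 and 13. Its runs lay at 79648802 to 79648894 on chromosome 4, with 1173, 900 and 668 alignments. On chromosome 13 they lay at 85266734 to 85266813, with 249, 54 and 40. In both genes the shares also count equal positions outside these runs. Where the nuclear count was lower than the mitochondrial one, the smaller count sets the most that can be shared. This holds for the nuclear places found from runs, and other places were not searched. With these included, at most 16.6%, 25.4% and 22.8% of mt-Nd2 and 29.7%, 24.5% and 24.5% of mt-Nd5 alignments were shared in litters 3, 1 and 2. At most 99.7%, 99.2% and 99.4% of mt-Nd3 were, which leaves 3, 12 and 7 alignments without a nuclear counterpart.

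**Figure D5:**
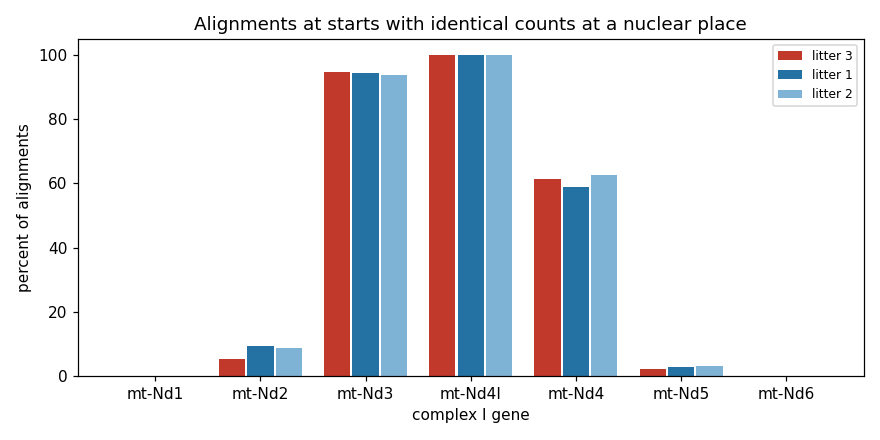
Percentage of the alignments of each complex I gene that begin at a position with exactly equal counts, in all 3 libraries, at the matching nuclear position, with 1 bar per litter. mt-Nd4l reaches 100% in every litter and mt-Nd3 93.6% to 94.5%, while mt-Nd1 and mt-Nd6 have 0%.

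The part of mt-Nd4 outside the copied stretch stood within the spread between litters of the part inside it. The 834 bases inside stood at 1599, 1035 and 803 RPKM in litters 3, 1 and 2 (1146 ± 409.7, SD, n = 3), and the 537 bases outside at 1561, 1124 and 749 RPKM (1145 ± 407). Litter 3 over the mean of the other litters was 1.74 inside and 1.67 outside. In mt-Nd3, the 158 bases inside the span of its runs stood at 201 ± 38.9 RPKM and the 190 bases outside at 30.4 ± 8.31. The ratio of litter 3 was 0.779 inside and 1.54 outside. This split does not part copied from uncopied sequence. The outside bases held 241, 187 and 142 alignments in litters 3, 1 and 2. Only 3, 12 and 7 alignments of the whole gene had no nuclear counterpart. For mt-Nd4l, 31 of its 290 counted bases lay outside the runs, too few for such a comparison. mt-Nd1 and mt-Nd6, with no recurring run, had ratios of 1.58 and 0.952.

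The number of different start positions shows how much of the depth rests on repeated starts. In litter 3, 96.9% of the counted bases of mt-Nd4l served as a start, with a mean of 104 alignments on each, against 88.6% and 30.5 in litter 1 and 81.0% and 23.9 in litter 2. In mt-Nd5 these were 93.5% with 59.0 alignments each in litter 3, against 88.8% with 34.9 and 84.8% with 25.8. mt-Nd6 used 76.6%, 74.7% and 70.5% of its bases in litters 3, 1 and 2, and mt-Nd3 55.7%, 52.6% and 48.6%, with 5.65, 8.45 and 6.49 alignments on each. The low level of mt-Nd3 thus went with fewer start positions and with fewer alignments per position than in the other 6 genes in each litter.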

How the data were processed

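The members and lists were chosen with earlier results of these data known. Reads had been aligned with Bowtie to mm9, per the submitters' processing notes; its version, filters and placements per read were not given in the sources used here. The authors deposited 1 coverage track (signal) per library, made from 1 lane each per the file headers, holding unscaled depth per base. Of isolated blocks at depth 1, 99.9% in each library were 72 bases long, so depth was decoded into starts of 72-base alignments; 0 negative values resulted, and the decoding was checked on simulated data. Alignments were assigned by their midpoint to bases of 1 gene only and scaled per 1000000 alignments and per kilobase (RPKM). The named-genes rule took every member and the 2 other mitochondrial genes nearest to the members' median pattern. Nuclear complex I and marker genes were not analysed here. Alternatives were other scalings, gene borders, single starts, removal of recurring positions and leaving out a litter. Each litter is 1 replicate of 1 group; no test was run, and errors are SDs over litters or 95% exact Poisson intervals. Python 3.11.15, numpy 2.4.6, scipy 1.17.1, pandas 2.3.3 and matplotlib 3.10.9 were used.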

Additional observations from a re-analysis of the deposited data

How the results depend on the processing

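Of 55 pairings of a main result with an alternative setting, 43 left the value within the spread between litters (counts within 1.5 times). This is a wide limit, so the tally is no measure of stability. For the range between the highest and the lowest gene the spread was 13.7, so a fall from 14.0-fold to 1.72-fold lay within it. A change from 5 to 7 genes highest in litter 3 did as well. With each start position counted once, which caps every base at 1 alignment, the median level was 183 RPKM in place of 839.8. The library total was smaller in that setting too, so these levels are on different scales. The share of messenger RNA alignments was then 55.9%, the highest gene stood 1.72-fold above the lowest, and 7 of 7 genes were highest in litter 3. The median ratio of litter 3 was 1.10, and 42.9% of windows were highest in litter 3. Without positions in recurring runs the share of messenger RNA alignments was 68.1% and the highest gene stood 37.7-fold above the lowest. In that setting 6 genes were highest in litter 3. RPKM was then per 1000000 alignments outside such runs, with totals of 24510223, 25636658 and 23181846 in litters 3, 1 and 2. This step keeps shallow positions of mt-Nd3 and mt-Nd4l that are not free of nuclear copies, so the 37.7-fold range follows in part from the filter. Scaled per 1000000 mitochondrial alignments, the median level was 41513, the median ratio reversed to 0.844, and 3 genes were highest in litter 3. The windows highest in litter 3 were 40.6% at a minimum of 1 CPM and 43.1% with median-of-ratios scaling. Leaving out each litter gave median levels of 688 to 997 RPKM, shares of 48.8% to 49.6%, ranges of 8.22 to 19.0-fold and a mean profile correlation of 0.86 to 0.99, highest without litter 3. With gene borders moved 60 bases upstream, mt-Nd4l stood at 844 RPKM in place of 1506. With at least 20 bases on each side of a gene end, chosen after seeing the data, the 5′ end of mt-Nd4 stood at 572% in place of 339% and that of mt-Nd2 at 35.0%. Apart from what each alternative changes by design, the cause was not tested. No paired analysis was possible because the samples form 1 group, with no other to pair them with; genes were compared within the same litters by their order. Depth limits the 3′ part of mt-Nd3.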
